A study of Mus musculus with 11 samples.

Results

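Fatty acids are used by a cell only after a synthetase has joined them to coenzyme A, and the genes described here encode that activation step and most of what can follow it. Members were taken by symbol family: the acyl-CoA synthetases Acsl and Acsm, the thioesterases Acot, the carnitine palmitoyltransferases Cpt1 and Cpt2, the dehydrogenases Acad, the enzymes Hadh and Acaa, the peroxisomal oxidases Acox, the elongases Elovl and the desaturases Fads. Of 23337 genes in the count table, 56 matched these families, and 48 of them had at least 10 counts in 5 or more libraries and are the members. The rule itself uses symbols and counts, with no comparison between groups, but it was set with earlier results of these data known.

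The tissue was the mouse adrenal gland, all donors being male and of one strain, Hsd:Athymic Nude-Foxn1nu, which carries a mutation of Foxn1 and lacks a functional thymus. Every mouse in both groups had been inoculated at week 0, when about 5 to 6 weeks old, with VCaP, an established line of human prostate cancer cells that responds to androgen. At week 7 they were allocated to a group, and the adrenals were collected at week 15. The 5 intact libraries are from mice that kept their testes and the 6 ORX libraries from orchiectomized mice, so the comparison asks how adrenal RNA differs when the testes are gone in tumour-bearing hosts. Nothing in the labels says that each library is 1 mouse, so the p-values rest on the variation among libraries, which may be technical.

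In background terms, long-chain acyl-CoA enters mitochondria by exchange onto carnitine, is shortened in repeated rounds by acyl-CoA dehydrogenases, hydratases, hydroxyacyl-CoA dehydrogenases and thiolases, and yields acetyl-CoA. Peroxisomes begin the same sequence with oxidases and handle very long and branched chains, while thioesterases release the free acid again. Elongases and desaturases work in the opposite direction at the endoplasmic reticulum and build long polyunsaturated chains. The adrenal cortex stores cholesterol as esters of such fatty acids and uses it to make steroids.

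The libraries held 11368447 to 15029582 counts and 16373 to 16829 detected genes. Cortical markers were abundant throughout: their summed level ranged over 35764 to 80545 counts per 1000000 of the scaled library (CPM) in intact and 63316 to 96043 CPM in ORX libraries, and 3 of 10 were higher in ORX (Hsd3b1, Cyp21a1 and Mc2r). Star, the cholesterol carrier of steroid synthesis, was at 20961 ± 7941 CPM (SD, n = 5) in intact and 21788 ± 3393 CPM (SD, n = 6) in ORX. Cyp11a1, the first enzyme of steroid synthesis, had a log2 fold change of -0.56 with an adjusted p of 0.321. All 3 markers of the X-zone, a cortical zone that androgen removes in male mice, were higher in ORX (28.7 to 40.2 CPM against 831 to 2911 CPM summed), and 5 of 8 glomerulosa markers were lower. Medullary markers summed to 11898 to 30493 CPM in intact and 6353 to 16638 CPM in ORX, 2 of 10 being lower (Slc18a2 and Npy), and Th, the first enzyme of catecholamine synthesis, had a log2 fold change of -1.25 with an adjusted p of 0.0565. Fat markers summed to 4721 to 12782 CPM and 2967 to 13383 CPM in the same order, and none of the 14 passed, although all 14 fold changes lay below 0 with a median log2 of -0.73. Among them, Adipoq, the adipocyte hormone, was at 589 ± 254 and 462 ± 286 CPM (adjusted p = 0.612), and Ucp1, the uncoupling protein of brown fat, at 436 ± 314 and 239 ± 230 CPM (adjusted p = 0.486). The liver list summed to 487 to 1794 CPM and 174 to 2400 CPM with 0 of 8 passing, most of it from Cyp2e1 (1210.2 and 671 CPM, log2 -0.85). The other 7 tested liver genes lay above 0, and the median log2 of all 8 was 1.37. Alb stood at 7.31 ± 11.1 and 51.3 ± 68.1 CPM (adjusted p = 0.167), and Ttr, Fgb, Serpina1a and Cps1 were at 0 in at least 1 library. All 10 kidney markers were at 0 in at least 1 library and summed to no more than 3.38 CPM. No member of the endothelial, macrophage or muscle lists passed. In library ORX 6 the counts leaned to short transcripts. Relative to the other ORX libraries, the shortest of 10 length classes of genes lay 0.63 higher and the longest 0.63 lower on the log2 scale. These are whole glands, in which fewer cells of a type and less RNA per cell cannot be told apart.

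After orchiectomy, 2 members were higher and 3 lower. Acadsb, the dehydrogenase of short branched acyl-CoA, rose 2.57-fold, and Cpt1a, the carnitine palmitoyltransferase that admits long chains to mitochondria, rose 1.70-fold. The thioesterases Acot12 and Acot11 fell 5.86-fold and 3.43-fold, and Fads1, the delta-5 desaturase, fell 1.79-fold. Thus 5 of 48 members (10.4%) passed edgeR's quasi-likelihood test at an adjusted p under 0.05, where 6.21% of the 14139 tested genes did so. By direction, 4.17% of members were higher against 3.03% of all tested genes, and 6.25% were lower against 3.18%. The groups did not overlap in 4 members (8.33%), all of the called ones but Acot11, against 5.28% of tested genes. With 48 members, these shares rest on 5 genes and lie close to the background. They also depend on the count minimum: Acot12 met it through the intact libraries, whereas Acot3 and Acot5, with more counts in ORX, fell below it.

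**Figure D1:**
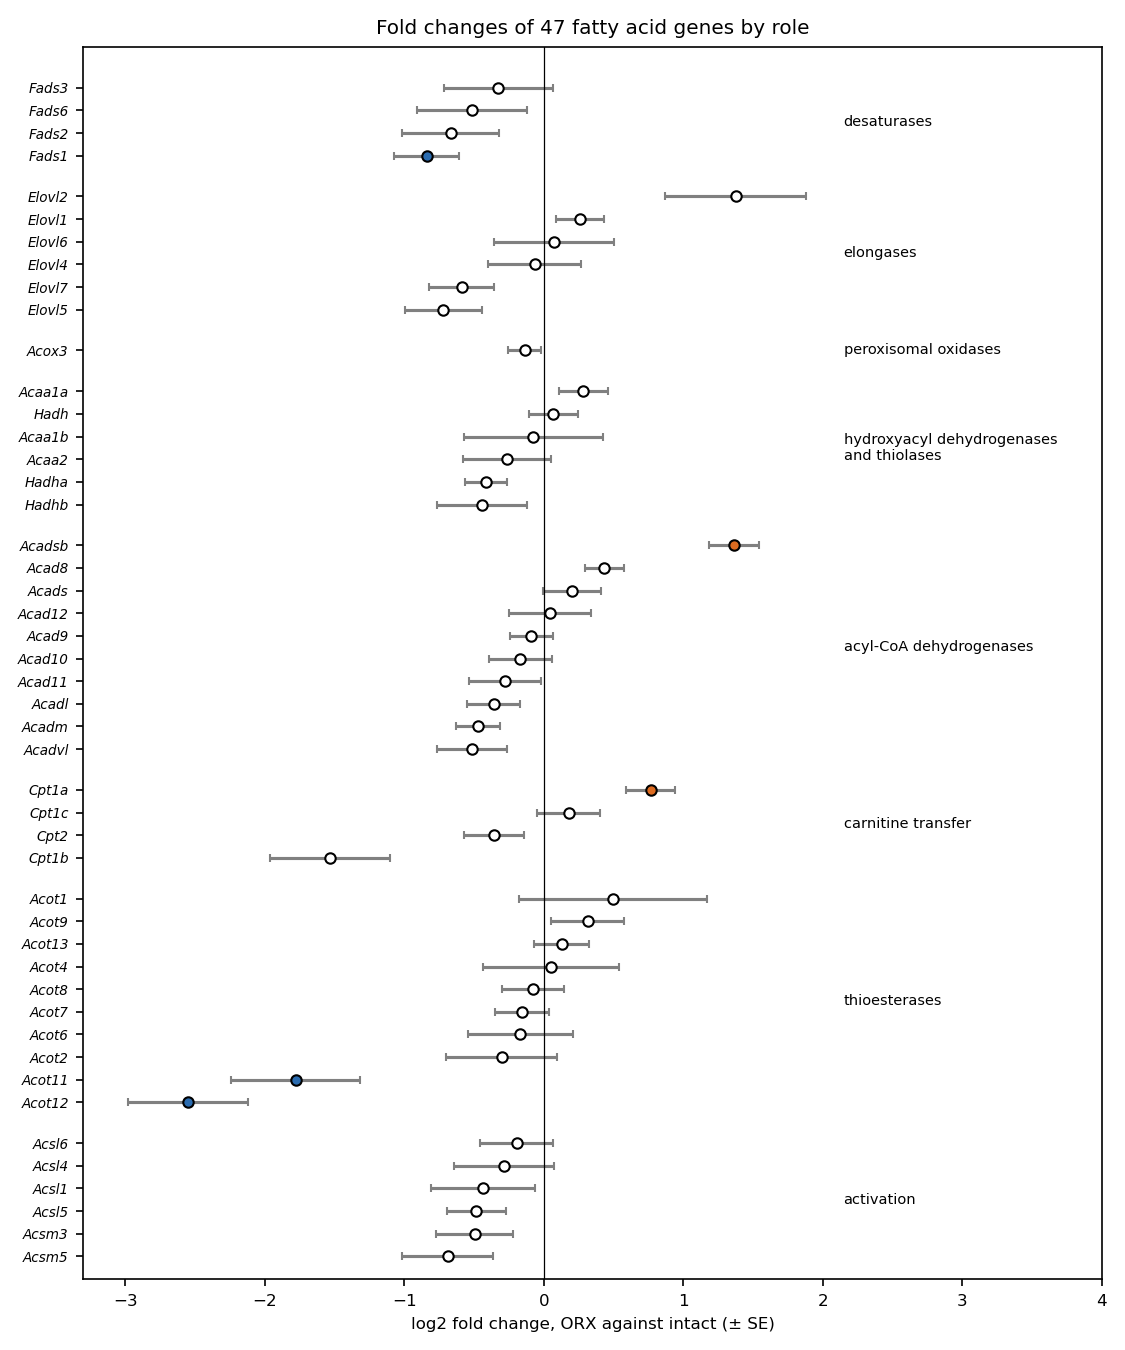
Log2 fold change, ORX over intact, of 47 members with its standard error, grouped by role. Filled points passed the test; Acadsb and Cpt1a lie to the right of 0 and Acot12, Acot11 and Fads1 to the left, and the 6 activation and 4 desaturase points lie to the left of 0 in this fit, Acsl1 and Fads3 changing side with the fat score as covariate.

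The directions of the 48 fold changes changed with the libraries and with marker scores as covariates. Fold changes lay below 0 in 33 members and above 0 in 15, with a median log2 of -0.23 beside 0.01 for all tested genes. With a score of the 14 fat markers as a covariate, 21 members lay below 0 and 27 above, the median log2 turned to 0.13, and that of all tested genes was 0.03; 12 members changed sign. With the medulla score instead, 13 changed sign, 30 lay below 0 and the median log2 was -0.33. The medulla score ran from 8.508 to 9.522 in intact and from 7.723 to 8.602 in ORX libraries. With so little overlap, that fit can hardly separate the score from the group. Leaving out intact 3, which had the most fat marker RNA of its group, left 29 below 0 with a median log2 of -0.11, and leaving out intact 2, which had the least, gave 37 and -0.30.

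Upstream sequence is shown for Acadsb, Cpt1a, Acot12 and Acot11, called members whose transcripts differed between groups, and not for Fads1. The bases are those just before an annotated start in RefSeq on the build GRCm38.p6, 5′ to 3′ on the gene's strand, trimmed of annotated exons of the gene itself and of other protein-coding genes. The Acot12 stretch still overlaps an exon of the antisense gene 4833422C13Rik, and that of Acadsb was trimmed to 79 bases. The Cpt1a stretch lies inside the annotated gene, whose first base is chr19:3322334, and precedes an inner start. Capitals mark a match on either strand to AGGTCA, the half-site that PPAR and other nuclear receptors bind, or to GGGCGG, the GC box of Sp factors. The coordinates are chr7:131410522-131410600 (+) for Acadsb, chr19:3323151-3323284 (+) for Cpt1a, chr13:91741371-91741511 (+) for Acot12, and chr4:106805008-106805157 (-) and chr4:106799847-106799981 (-) for the outer and the inner start of Acot11.
Acadsb: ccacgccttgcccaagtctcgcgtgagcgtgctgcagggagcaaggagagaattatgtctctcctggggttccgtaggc
Cpt1a: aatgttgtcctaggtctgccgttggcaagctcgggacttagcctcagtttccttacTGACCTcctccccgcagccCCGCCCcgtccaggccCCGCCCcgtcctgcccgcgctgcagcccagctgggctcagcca
Acot12: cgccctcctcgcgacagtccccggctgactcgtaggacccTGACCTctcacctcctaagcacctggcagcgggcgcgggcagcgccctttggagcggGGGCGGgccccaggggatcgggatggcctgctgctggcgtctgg
Acot11, outer start: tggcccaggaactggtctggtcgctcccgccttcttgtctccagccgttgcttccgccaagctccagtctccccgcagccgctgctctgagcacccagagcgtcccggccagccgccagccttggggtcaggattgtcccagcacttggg
Acot11, inner start: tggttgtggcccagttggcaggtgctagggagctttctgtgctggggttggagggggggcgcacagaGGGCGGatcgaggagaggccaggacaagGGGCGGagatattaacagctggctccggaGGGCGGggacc
The Cpt1a stretch held 1 AGGTCA match and 2 GC boxes, that of Acot12 held 1 of each, and the inner start of Acot11 held 3 GC boxes, whereas the stretches of Acadsb and of the outer start of Acot11 held neither motif as printed. In the full 150 bases before its start, Acadsb had 2 GC boxes. Over such untrimmed windows of 150 bases, AGGTCA was found in 7 of 41 members with an entry (17.1%) and in 9.79% of 27025 genes. GGGCGG was found in 26 of 41 (63.4%) against 31.3%, and CCAAT, the CCAAT box, in 17 of 41 (41.5%) against 27.7%. AGAACA, a half-site of the androgen and glucocorticoid receptors, was found in 1 of 41 (2.44%) against 11.0%. The sets compared are unlike: the 27025 genes include ones without counts here, whereas every member had to pass the count minimum. Shares among expressed genes only were not computed, so these differences cannot be credited to the fatty acid families. The matches are descriptions of letters and were not tested as binding.

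Activation was carried by 6 measured synthetases, and none passed. Acsl1, the synthetase of long chains that is abundant in fat, liver and heart, had the highest level per length of this role, 219 CPM per kilobase of transcript (RPKM) on average over the 11 libraries. Its levels in intact 1 to 5 were 699, 425, 1747, 961 and 1137 CPM, and those in ORX ran from 444 over a median of 567 to 1564 CPM in ORX 3. The groups overlapped widely. The highest value of each group, in intact 3 and ORX 3, was in the library with the most summed fat marker RNA, at 12782 and 13383 CPM. By the fat score, the mean log2 level of these markers, ORX 6 was instead the highest ORX library (7.7 against 7.569 in ORX 3). Acsl1 in ORX 6 was at 555 CPM, below the ORX median. The log2 fold change of Acsl1 was -0.43 (adjusted p = 0.526) and turned to 0.39 with the fat score as covariate. Acsl4, which prefers arachidonate and is known for its high level in steroid-making cells, stood at 650.1 ± 303 CPM in intact and 534 ± 179 CPM in ORX, with its lowest intact value in intact 3. All 6 fold changes lay below 0, from -0.69 for Acsm5 to -0.19 for Acsl6 on the log2 scale, with Acsm3, a medium-chain synthetase, at -0.49 and Acsl5 at -0.48; with a marker score as covariate, 1 or 2 of the 6 lay above 0. Acsl5 (adjusted p = 0.19) was the only one of these with an unadjusted p under 0.05. Reads of Acsm3 may be mixed with those of Eri2, which covers 39.7% of its exon bases on the opposite strand.

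Carnitine transfer was the step at which Cpt1a stood out. Cpt1a lies at chr19:3322334-3385733 on the plus strand of GRCm38, the build of all positions given here, and encodes the isoform of liver and many other tissues, the regulated entry point of mitochondrial oxidation that malonyl-CoA inhibits. Its levels in intact 1 to 5 were 358, 356, 240.2, 308 and 423 CPM, and in ORX the lowest, median and highest were 454, 571 and 696 CPM. Every ORX library lay above every intact one, with the lowest value of all in intact 3. The means were 337 ± 68.1 CPM (SD, n = 5) and 574 ± 93.7 CPM (SD, n = 6), a log2 fold change of 0.77 ± 0.17 (SE) with an adjusted p of 0.0219. The call was lost without ORX 2, ORX 4 or ORX 5 (adjusted p up to 0.0571) and with the fat score as covariate (log2 0.61, adjusted p = 0.0963).

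Cpt2, which hands the chain back to coenzyme A inside the mitochondrion, did not pass: it stood at 177 ± 59.2 CPM in intact and 138 ± 29.9 CPM in ORX, a log2 fold change of -0.36 (adjusted p = 0.358). On the per-length scale, the ratio of Cpt1a to Cpt2 was 1.39, 1.71, 0.53, 1.14 and 1.01 in intact 1 to 5 and ran from 1.44 to 3.14 in ORX, with means of 1.16 ± 0.441 and 2.39 ± 0.687. Only intact 2 reached into the ORX range, at whose lower end stood ORX 6. Cpt1a made up 49.3 ± 10.3% of the per-length level of the 4 transferases in intact and 66.6 ± 6.79% in ORX. Cpt1b, the muscle and brown fat isoform, was scarce, at 1.53, 0.51, 3.84, 3.51 and 3.79 CPM in intact and 0.663 to 1.28 CPM in ORX, and narrowly missed the threshold (log2 -1.53 ± 0.43, adjusted p = 0.0524). Its value is uncertain in addition because 93.0% of the 50-base stretches of its main transcript also occur in the readthrough gene Gm44502. Cpt1c, the isoform of neurons, was at 19.3 ± 4.32 and 21.9 ± 6.67 CPM.

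**Figure D2:**
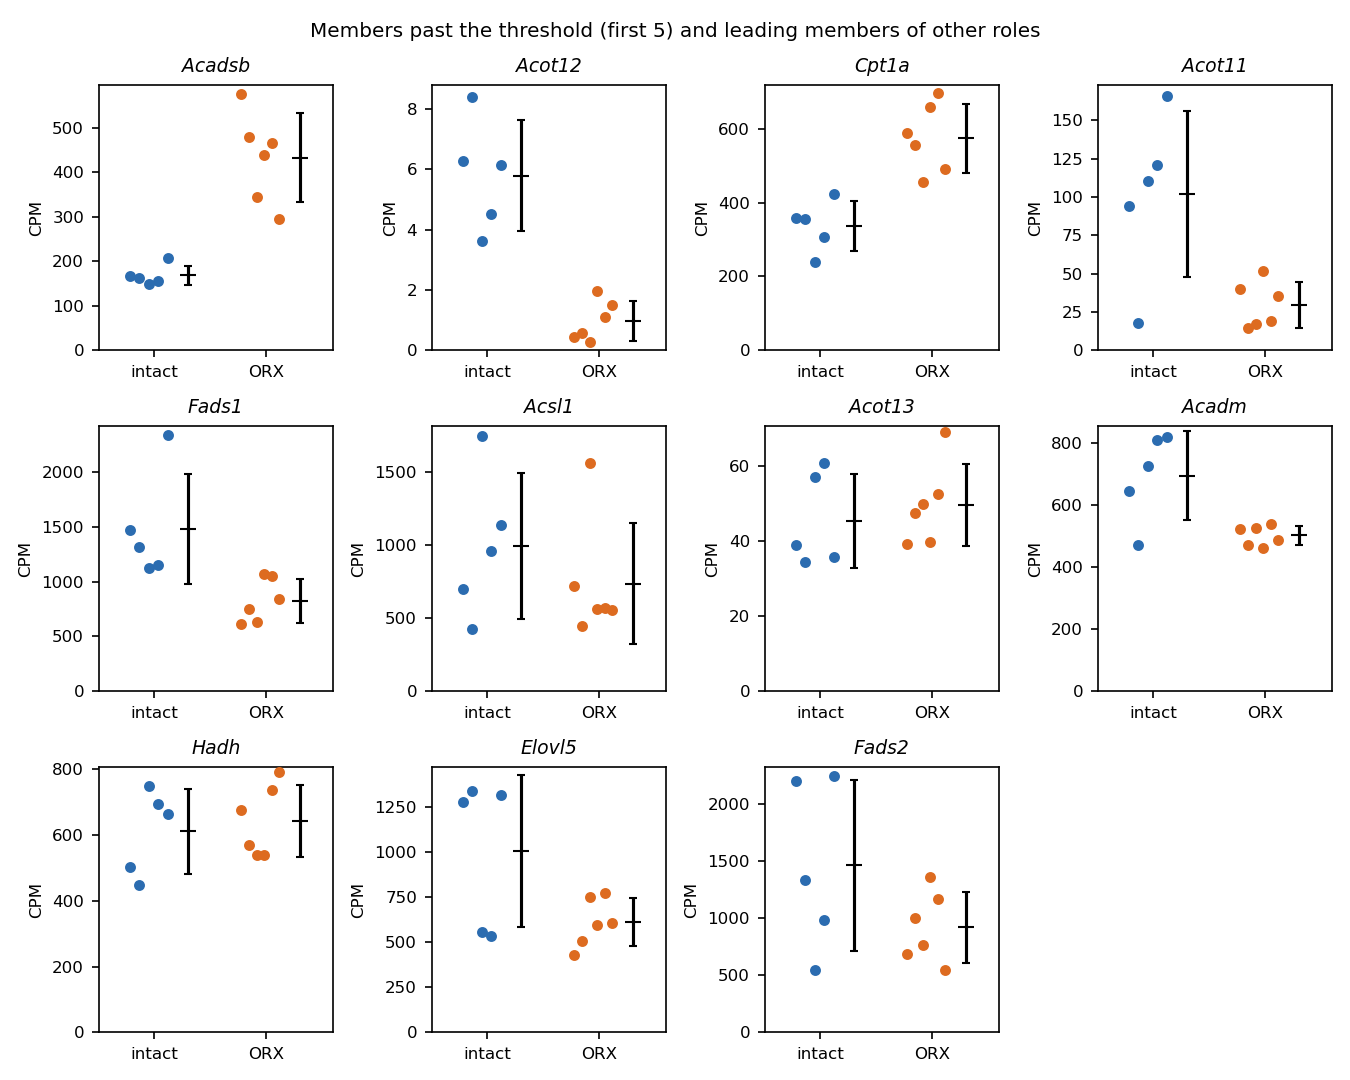
CPM in each of the 5 intact (blue) and 6 ORX (orange) libraries, one panel per gene, for the 5 members that passed the test and leading members of other roles; black bars are the mean and SD of a group. Acadsb and Cpt1a are higher and Acot12 and Fads1 lower in every ORX library than in any intact one, while in Acot11 intact 2, at 17.7 CPM, lies within the ORX range.

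Among the 10 acyl-CoA dehydrogenases, which take the first oxidation step of each round, Acadsb alone passed. Acadsb lies at chr7:131410601-131448944 on the plus strand and acts on short branched acyl-CoA, chiefly the 2-methylbutyryl-CoA made from isoleucine. Its levels were 167, 162, 150.1, 156 and 207 CPM in intact 1 to 5, and the ORX libraries ran from 295 in ORX 6 over a median of 453 to 576 CPM in ORX 1. The intact values were close together and the lowest ORX value was above the highest of them. The means were 168 ± 22.3 and 433 ± 101 CPM, a log2 fold change of 1.36 ± 0.18 with an adjusted p of 0.000791, the smallest among the members. Leaving out any 1 library kept the log2 fold change between 1.26 and 1.45 and the adjusted p at 0.0039 or less. With a score of the 10 medullary markers as covariate, the call was lost (log2 1.05, adjusted p = 0.105), as were the other 4 calls of members under that fit. That score overlapped little between the groups, as given above, so the fit can hardly separate it from orchiectomy. Per length, Acadsb made up 2.58 ± 0.672% of the dehydrogenases in intact and 7.78 ± 2.19% in ORX.

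The dehydrogenases of medium to very long straight chains had lower ORX means without passing. Acadm, the medium-chain enzyme, led this role per length at 288 RPKM. It stood at 646, 471, 727, 809 and 818 CPM in intact 1 to 5 and between 462 and 539.7 CPM in ORX, with a median of 505 CPM. The ORX values were narrow and lay below all intact values but that of intact 2, and the difference missed the threshold (log2 -0.47 ± 0.16, adjusted p = 0.095). Acadvl and Acadl, for very long and long chains, had log2 fold changes of -0.51 (adjusted p = 0.242) and -0.36 (adjusted p = 0.284), and Dvl2 covers 42.9% of the exon bases of Acadvl on the opposite strand. Acads, the short-chain enzyme, was at 183 ± 40.5 and 210 ± 59.3 CPM. Acad8, which acts on isobutyryl-CoA from valine, was at 65.4 ± 3.59 CPM in intact and 88.3 ± 16.2 CPM in ORX and did not pass (log2 0.43 ± 0.14, adjusted p = 0.0808). Acad9, which also assembles respiratory complex I, and Acad10, Acad11 and Acad12 had log2 fold changes between -0.28 and 0.04, and Acad10 and Acad12 share sequence.

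The later steps of the mitochondrial round held no called member. Hadh, the hydroxyacyl-CoA dehydrogenase of medium and short chains, led per length at 351 RPKM. Its 5 intact values were 503, 449, 749.9, 693 and 665 CPM, and the ORX values ran from 538 over 624 to 791 CPM, so the groups overlapped (log2 0.07 ± 0.18, adjusted p = 0.854). Hadha and Hadhb, the subunits of the trifunctional protein for long chains, had log2 fold changes of -0.42 ± 0.15 (adjusted p = 0.122) and -0.44 ± 0.32 (adjusted p = 0.446). Hadha was at 793, 645, 911, 842 and 986 CPM in intact and 530.2 to 757 CPM in ORX. Per length, counts of Hadha were 6.79 ± 2.12 times those of Hadhb in intact and 6.98 ± 2.22 times in ORX, although the proteins form one complex. Of the 50-base stretches of the main Hadhb transcript, 62.4% also occur elsewhere, mainly in Gm13910 and Gm9108, and how reads matching several genes were counted is not stated in the labels, and its part in the ratio was not tested. Acaa2, the mitochondrial thiolase, had a log2 fold change of -0.26, and the peroxisomal thiolases Acaa1a and Acaa1b, which share sequence, 0.28 and -0.07.

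Acox3, a peroxisomal oxidase that takes branched chains, did not pass and was at 112 ± 12.9 and 102 ± 7.9 CPM (adjusted p = 0.524).

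**Figure D3:**
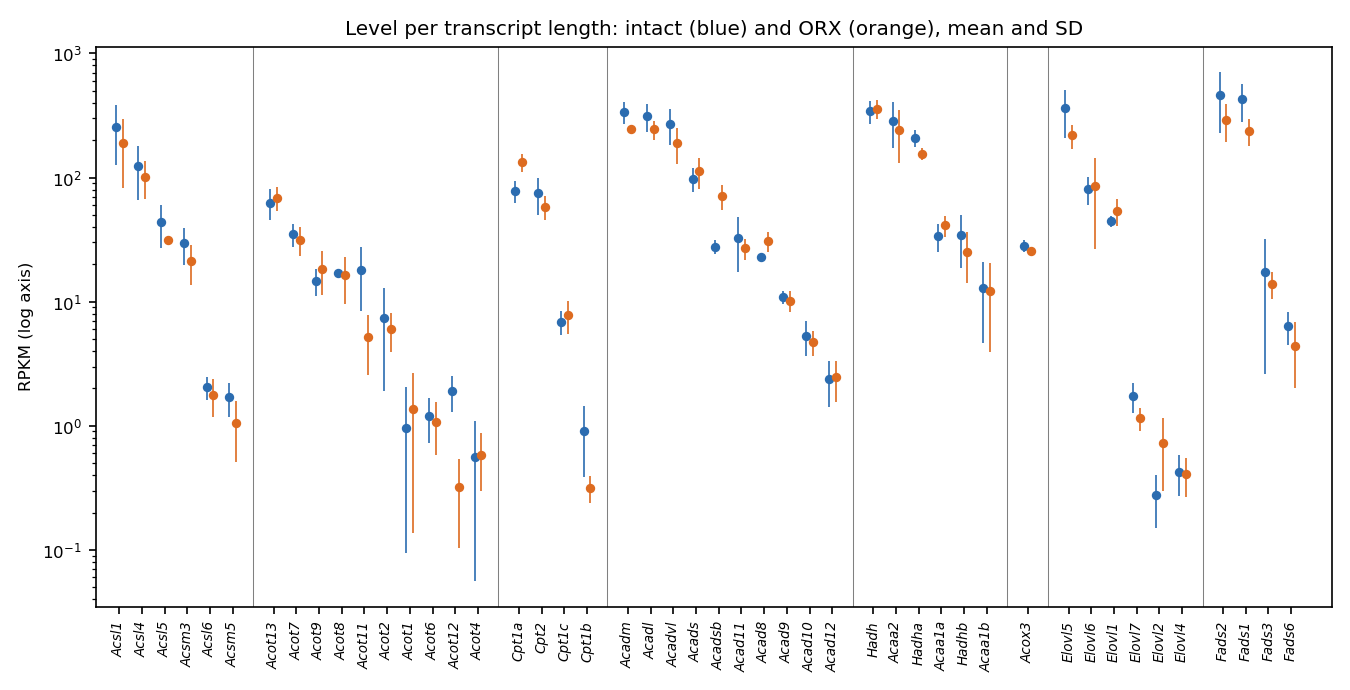
Mean level per transcript length (RPKM, log axis) of 47 members in intact and ORX libraries, grouped by role, with SD bars whose lower end is cut short where it approaches 0. Fads2, Hadh, Acadm and Elovl5 are among the highest, and most pairs of points lie within each other's bars.

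Thioesterases held the largest fall of the members. Acot12, a cytosolic enzyme that cleaves acetyl-CoA, lies at chr13:91741512-91786148 on the plus strand and was scarce. Its levels were 6.27, 8.41, 3.64, 4.52 and 6.14 CPM in intact, from 86, 99, 55, 54 and 81 counts, and 0.295 to 1.98 CPM with a median of 0.853 in ORX, from 4 to 26 counts. The highest ORX value was below the lowest intact one. Acot12 reached the count minimum in every intact library but, in ORX, only in ORX 4, ORX 5 and ORX 6 (26, 14 and 20 counts). Its membership thus rested on the group in which it was high. The means were 5.8 ± 1.83 and 0.986 ± 0.667 CPM, a log2 fold change of -2.55 ± 0.43 with an adjusted p of 0.00405, and -2.89 to -2.36 when any 1 library was left out. An antisense gene at its start, 4833422C13Rik, shares 149 exon bases with it and was also lower in ORX (log2 -2.09 ± 0.28, adjusted p = 0.000927), with 74 to 127 counts in intact and 13 to 39 in ORX. Reads of the 2 genes can be told apart outside the shared bases, which are 4.52% of the exon bases of Acot12.

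Acot11, a long-chain thioesterase known from brown fat, where cold induces it, lies at chr4:106744555-106804998 on the minus strand. It was at 94.0, 17.7, 110.2, 121 and 166 CPM in intact and at 14.3, 27.5 and 51.4 CPM as the lowest, median and highest of ORX. In 4 intact libraries it was above every ORX value, and in intact 2, the library with the least fat marker RNA of its group, it was within the ORX range. In ORX 3, however, which had the most summed fat marker RNA of its group at 13383 CPM, Acot11 was at only 17.0 CPM. The means were 102 ± 54.0 and 29.6 ± 15.0 CPM, a log2 fold change of -1.78 ± 0.46 with an adjusted p of 0.0374. The call was lost without any one of intact 1, 4 or 5 or ORX 1, 2, 3, 5 or 6 (adjusted p up to 0.108), and the log2 fold change was -0.94 (adjusted p = 0.359) with the fat score as covariate. Its opposite-strand neighbour Fam151a had at most 5 counts in a library.

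The other 8 thioesterases did not pass. Acot13, a small mitochondria-associated enzyme, led per length at 66.1 RPKM, with 38.9, 34.4, 57.1, 60.7 and 35.6 CPM in intact and 39.3, 48.6 and 68.8 CPM as the lowest, median and highest of ORX, with the groups overlapping. Acot7, the enzyme of brain and neurons, Acot9 and Acot8, the last of which is peroxisomal, had log2 fold changes of -0.16, 0.32 and -0.08. Acot1, Acot2, Acot4 and Acot6 lie together on chromosome 12, share sequence and had log2 fold changes between -0.30 and 0.50 with standard errors of 0.37 to 0.67. In Acot1 the highest value of each group was far from the rest, 6.49 CPM in intact 3 and 8.97 CPM in ORX 6.

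Elongases, which add carbons to long chains, held no called member among the 6 measured. Elovl5, which extends polyunsaturated chains, led at 284 RPKM with 1277, 1339, 555, 534 and 1316 CPM in intact 1 to 5 and 431, 599 and 774 CPM as the lowest, median and highest of ORX. The intact libraries fell into a high set of 3 and a low pair, intact 3 and intact 4, which overlapped with ORX (log2 -0.72 ± 0.27, adjusted p = 0.138). Elovl2, which also extends polyunsaturated chains and is best known from liver, had 0.656, 1.53, 1.52, 0.502 and 1.06 CPM in intact and 0.718 to 4.72 CPM in ORX (log2 1.38 ± 0.51, adjusted p = 0.125). Elovl7 had a log2 fold change of -0.59 (adjusted p = 0.155). Elovl6, which extends palmitate, was at 482 ± 122 and 508 ± 351 CPM, Elovl1 at 81.1 ± 8.36 and 97.2 ± 24.0 CPM, and Elovl4, of retina and skin, at 1.28 ± 0.467 and 1.22 ± 0.42 CPM.

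Of the 4 desaturases, Fads1 passed, and all 4 fold changes lay below 0 with a median log2 of -0.59, although Fads3 lay above 0 without intact 3 and with voom (0.33 and 0.13). Fads1 lies at chr19:10182888-10196877 on the plus strand and makes arachidonate, the fatty acid enriched in adrenal cholesterol esters. It was at 1467, 1310.1, 1120.1, 1149 and 2334 CPM in intact 1 to 5 and 611, 796 and 1067 CPM as the lowest, median and highest of ORX. The groups did not overlap, but intact 5 stood far above the other intact libraries. The means were 1476 ± 499 and 825 ± 201 CPM, a log2 fold change of -0.84 ± 0.23 with an adjusted p of 0.0474, close to the threshold. It was lost without any one of intact 1, 2 or 5 or of the 6 ORX libraries, and without intact 5 the log2 fold change was -0.61 (adjusted p = 0.133).

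Fads2, the delta-6 desaturase at the start of the same route, lies nearby at chr19:10062765-10101746 on the minus strand and had the highest level per length of the members at 371 RPKM. Its intact values were 2208, 1335, 548, 983 and 2246 CPM and its ORX values 544, 881 and 1366 CPM as the lowest, median and highest. They overlapped, and the lowest of each group were intact 3 and ORX 6 (log2 -0.67 ± 0.35, adjusted p = 0.27). Fads3, on the far side of Fads2 at chr19:10041569-10060110, had a log2 fold change of -0.33 that turned to 0.33 without intact 3 and to 0.28 with the fat score as covariate. Fads6, on chromosome 11, was at -0.52. Relative to Fads2, Fads1 did not separate the groups on the per-length scale: the ratio was 0.605 to 1.86 in intact and 0.681 to 1.41 in ORX.

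**Figure D4:**
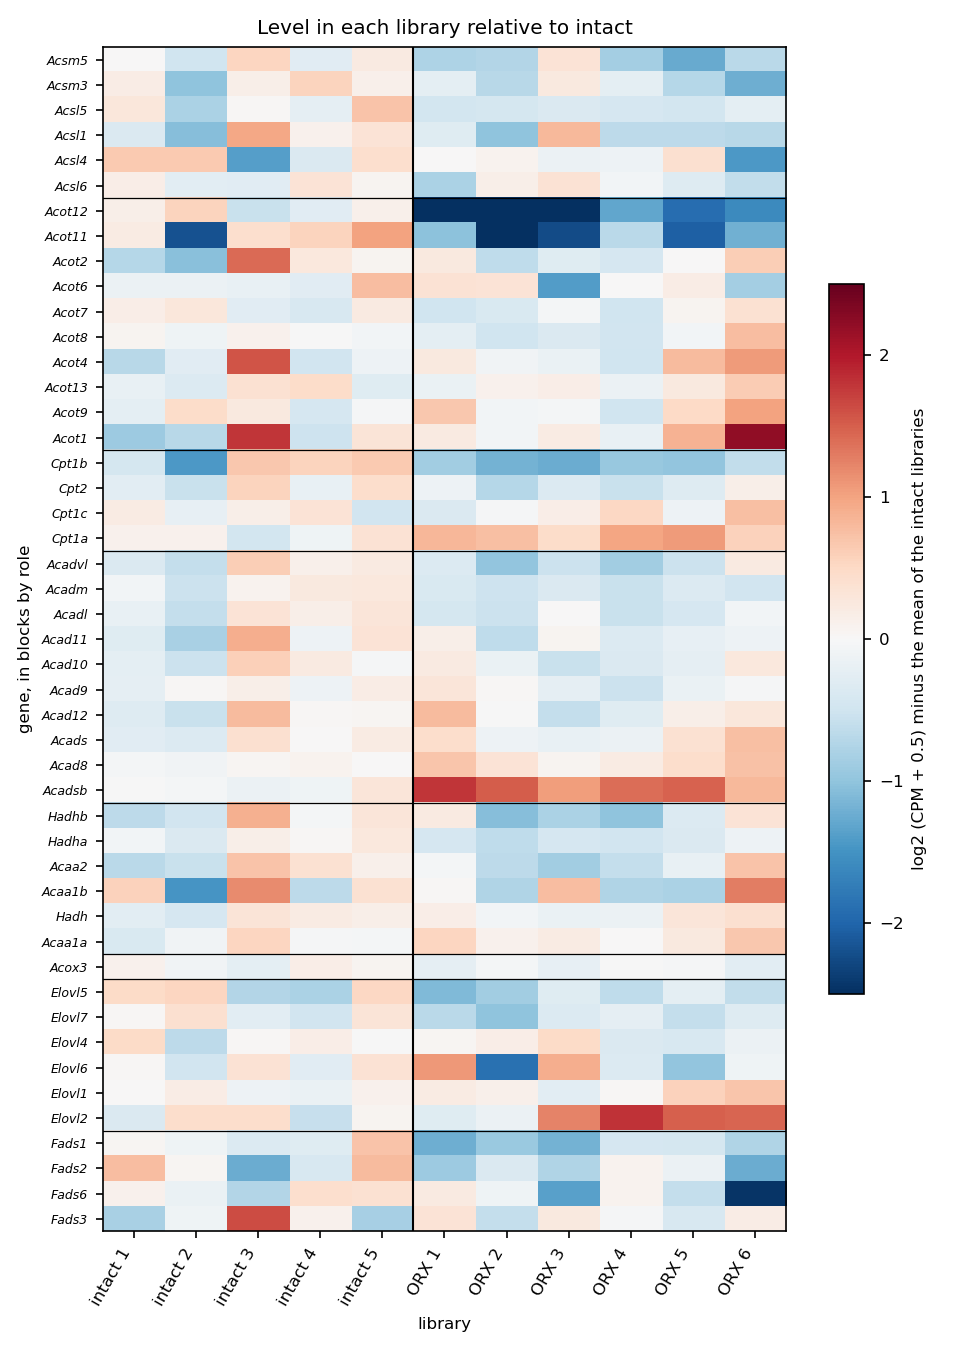
Log2 level of 47 members (rows, by role) in the 11 libraries (columns) relative to the mean of the intact libraries, with a pseudocount of 0.5 CPM and colours that stop at 2.5 and -2.5. Intact 3 and ORX 6 hold the highest value of their group for 21 and 22 of all 48 members, and the differences between libraries of one group are as visible as those between groups.

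Within groups, single libraries held many of the highest or lowest values. Intact 3 held the highest intact value in 21 of 48 members (43.8%, against 25.9% of all tested genes), and intact 2 the lowest in 23 (47.9% against 23.8%). In ORX, ORX 6 was highest in 22 (45.8% against 29.8%), and ORX 2 was lowest in 13 (27.1% against 11.9%) and highest in none. Intact 2 and ORX 2 had the least fat marker RNA of their groups, 4721 and 2967 CPM summed, and intact 3 had the most and also the least cortical marker RNA, 35764 CPM. ORX 6 was the library with counts leaning to short transcripts. It also had the highest fat score of its group, 7.7 against 7.569 in ORX 3. By summed fat marker RNA, ORX 3 stood above it, at 13383 against 8291 CPM. ORX 3 nevertheless was highest in only 7 members (14.6% against 19.0% of all tested genes) and lowest in 11 (22.9% against 17.0%). The part of these features in single members was tested only by the fits with a marker score as covariate and without single libraries.

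**Figure D5:**
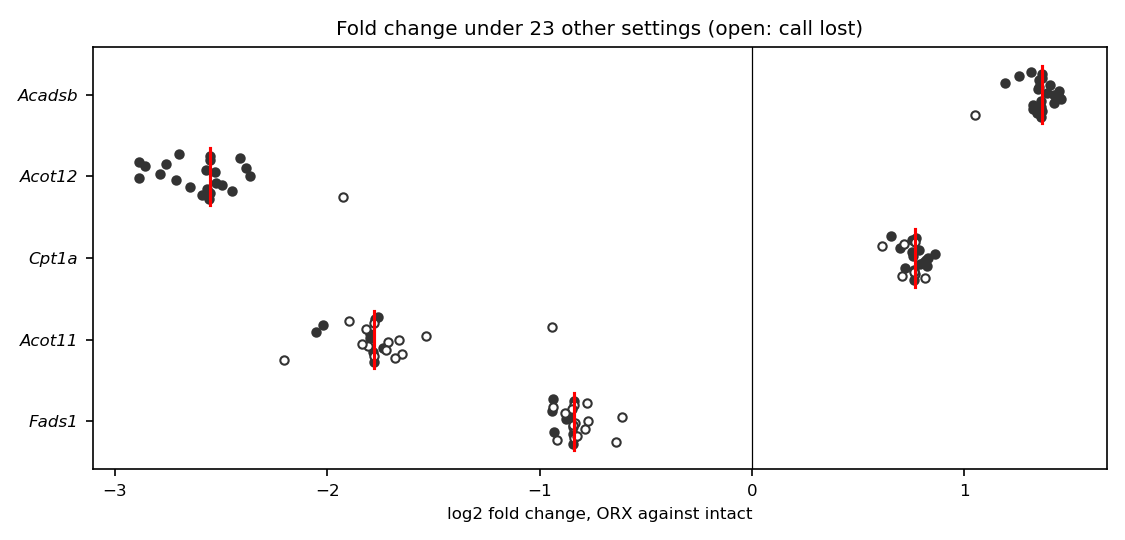
Log2 fold changes of the 5 called members under the 23 alternative settings; the red line is the value reported here, filled points kept the call and open points lost it. Acadsb and Acot12 lost it under 1 setting each, the medulla score as covariate, while Acot11 and Fads1 lost it under most settings that left out a library.

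The 8 matching genes below the count minimum were Acot3, Acot5, Acot10, Acox2, Acoxl, Acsm1, Acsm2 and Acsm4, with 0 to 22 counts in any library. Just outside the minimum, Acot3, Acot5 and Acox2 had 10 counts or more in 2 libraries, and just inside it Acot12 had them in 8 and Cpt1b, Elovl2 and Acot1 in 9. The 8 libraries of Acot12 were all 5 intact ones and 3 ORX ones.

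The level of each role's leading gene depends on the length used. Per bases of the principal transcript, Acsl1, Acadm, Cpt1a and Hadh led their roles, but per all annotated exon bases Acsl4, Acadl, Cpt2 and Acaa2 did. Fads2, Elovl5 and Acot13 led under both.

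Genes around these families were taken from 6 lists. All their counts stand beside 3.03% of all tested genes higher and 3.18% lower. Of 23 PPAR and lipid regulators, none was higher and 2 were lower. Ppargc1b, a coactivator of mitochondrial and fat oxidation genes, was at 17.2 ± 10.7 CPM in intact and 4.08 ± 1.81 CPM in ORX (log2 -2.07, adjusted p = 0.0175). Pdk4, the kinase that spares glucose when fatty acids are burned and a PPAR target, was at 515 ± 444 and 153 ± 24.0 CPM (log2 -1.76, adjusted p = 0.0261), with no overlap between groups and 1255 CPM in intact 3. Of the 23 fold changes, 20 lay below 0 with a median log2 of -0.60, and that of Ppara, the receptor that drives many oxidation genes, was -1.23 (adjusted p = 0.117). Fat markers moved the same way without passing, as given above.

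Of 33 other β-oxidation enzymes, none passed in either direction, and 6 had an unadjusted p under 0.05; their median log2 was 0.13. Of 23 genes of peroxisome transport and biogenesis, 2 were higher and none lower: Pex16, which brings membrane proteins to peroxisomes, rose from 66.3 ± 19.6 to 135 ± 28.3 CPM (log2 1.02, adjusted p = 0.0111) and Pex7, the import receptor for PTS2 proteins, from 31.2 ± 2.05 to 46.6 ± 8.02 CPM (log2 0.58, adjusted p = 0.0299). Of 22 tested synthetases and carriers outside the members' families, none was higher and 2 were lower, the acetyl-CoA synthetase Acss1 (84.7 ± 29.9 to 31.1 ± 10.6 CPM, log2 -1.45, adjusted p = 0.00734) and the propionate-activating Acss3 (25.3 ± 10.3 to 7.84 ± 5.31 CPM, log2 -1.69, adjusted p = 0.0382). Of 15 genes of fatty acid synthesis and the rest of the elongation cycle, only Acacb passed, the acetyl-CoA carboxylase whose malonyl-CoA inhibits Cpt1 enzymes. Acacb was at 496, 285, 1213, 547 and 759 CPM in intact and 124 to 423 CPM in ORX (log2 -1.29, adjusted p = 0.0499), with its highest value in intact 3 and the groups overlapping. Of 12 other thioesterases and ketone body genes, only Bdh1, the β-hydroxybutyrate dehydrogenase, passed; it rose from 5.33 ± 1.0 to 12 ± 3.02 CPM (log2 1.17, adjusted p = 0.00831).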

How the data were processed

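RNA-seq of 11 mouse adrenal samples (5 intact, 6 ORX) was used as gene counts deposited by the authors, whole numbers per gene symbol with no normalization visible in the values. Each library started from 300 ng RNA, per the labels' protocols, which name both a stranded and an unstranded TruSeq guide, so whether strand was kept is unknown. Tools listed in the submitters' processing notes are Subread 1.5.1 and bcl2fastq 1.8.4, and the build is mm10. Which annotation and strand setting were used, and how reads matching several genes were handled, is not stated. The table holds 2 identical copies of itself, and the first was used.

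All 14139 genes left by filterByExpr (minimum count 10, minimum total 15) were fitted with edgeR 4.0.16 (TMM, quasi-likelihood test, two-sided) in R 4.3.3, and p-values were adjusted by the Benjamini-Hochberg method over all of them. A member is called where the adjusted p is under 0.05. CPM values are counts per 1000000 of the TMM-scaled library total, given with SD over libraries. Marker scores are mean log2 CPM values of a list. RPKM, computed here, divides CPM by the kilobases of the longest APPRIS principal transcript in GENCODE M21, and its merged exons gave coordinates on GRCm38. The script was checked on simulated data. Alternatives were RLE factors, library totals, no count filter, 1 CPM in 5 libraries, DESeq2 1.42.0, voom of limma 3.58.1, other thresholds, a replicate block, marker scores as covariates and libraries left out. Members and gene lists were chosen with earlier results of these data known. Members are named, and values in every sample are given for the called members, leading members of roles by level per length, and some that narrowly missed, chosen after their values were seen. Of each pathway list, members past the threshold are named. Of the marker lists, the summed range and the markers that passed or are at 0 are given, as counts for the longer lists. Promoter motifs were also chosen after the data were seen. Of the matching genes, 2 outside the members and 1 of the 48 are not reported here.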

Additional observations from a re-analysis of the deposited data

Results flagged for a closer look

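In 9 of the 96 groups of libraries (48 members in intact and in ORX), the highest value stood apart from the others by more than Dixon's 95% critical value. Of these, 3 were in intact 3: Fads3 at 159.6 CPM (next 55.6), Acot1 at 6.49 CPM (next 2.05) and Acot4 at 9.27 CPM (next 2.5). Intact 5 was high in Fads1 at 2334 CPM (next 1467) and in Acot6 at 6.97 CPM (next 3.5). ORX 3 was high in Acsl1 at 1564 CPM (next 724) and in Acsm5 at 6.34 CPM (next 2.87). ORX 6 was high in Acot1 at 8.97 CPM (next 3.20) and in Acot8 at 33.9 CPM (next 18.8). No lowest value stood apart in this way.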

How the results depend on the processing

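Of the values of the 48 members under 23 alternatives, 1055 kept their direction or had no call, and their side of the threshold, 38 lost a call, 11 gained one, and no called value changed sign. The higher and lower members, 2 and 3 in the report, were 3 and 6 with DESeq2, 2 and 6 with voom, 1 and 1 at an adjusted p under 0.01, 1 and 1 in the test against a 1.5-fold change, 1 and 1 with the fat score and 0 and 0 with the medulla score as covariate. Leaving out 1 library gave 1 to 3 higher and 1 to 4 lower members, the lower counts of 1 coming without intact 1, intact 5, ORX 1, ORX 2, ORX 5 or ORX 6 and the higher counts of 1 without ORX 2, ORX 4 or ORX 5. Of all tested genes, 878 were called in the report, 1737 with DESeq2, 2056 with voom, 260 at an adjusted p under 0.01, 174 against a 1.5-fold change, 131 with the medulla score and 408 to 1280 without 1 library. Stricter thresholds call fewer genes by construction, and for the other shifts the cause was not tested. The medulla score overlapped little between the groups, as given above. Among the 43 members not called, signs changed most under the fat score (12) and the medulla score (13). DESeq2 added Acad8, Acadm, Cpt1b and Hadha, and voom added Acadm, Elovl5 and Hadha. Fads1 also missed the threshold with library totals (adjusted p = 0.0511).

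Samples of both groups carry the numbers 1 to 5, and the labels do not say that these pair samples. Correlations of same-numbered deviations ran from -0.276 to 0.182, and only the libraries numbered 5 correlated best with their own number. Such correlations cannot exclude pairing, because other differences among libraries may hide it. With the replicate block, 2 members were higher, 1 was lower and 416 of all genes were called.

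Genes under about 10 counts a library, such as Acot12 in ORX and the 8 matching genes below the minimum, are limited by counting error, and overlapping or near-identical genes by the unknown strand and multiple-match settings. A p that missed the threshold does not show that values were equal.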

Other observations

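The dehydrogenases that act on branched-chain amino acid products were set side by side after their values were seen, without a test of the group. Acadsb (isoleucine), Acad8 (valine) and Ivd (leucine, outside the symbol families) had log2 fold changes of 1.36, 0.43 and 0.48, of which only that of Acadsb passed (adjusted p = 0.000791, 0.0808 and 0.154). Acadm, Acadl and Acadvl, for medium to very long straight chains, had values of -0.47, -0.36 and -0.51, none of which passed. Acads, for short straight chains, lay on the other side at 0.20 and did not pass either.

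Below the count minimum, Acot3 had 11 counts in the 5 intact libraries together and 66 in the 6 ORX libraries, and Acot5 had 5 and 67. Both are thioesterases of the chromosome 12 cluster of Acot1, Acot2, Acot4 and Acot6, share sequence with them, and had 10 or more counts in only 2 libraries each, so no fold is given.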
